A study of Mus musculus with 8 samples.

Results

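The smooth muscle contractile genes are the 10 genes Acta2, Actg2, Myh11, Myl9, Mylk, Tagln, Cnn1, Smtn, Lmod1 and Synpo2, which encode parts of the contractile apparatus of smooth muscle. They were taken as the rows of the deposited expression table that carry these gene symbols, 10 of 37979 genes listed, and all 10 were above 0 in all 8 libraries and so were among the 27414 genes tested. Bulk RNAseq was performed on pericytes and smooth muscle cells (SMCs) sorted from hindlimb skeletal muscle, with 4 libraries of each that are numbered as replicates 1 to 4. Both groups came from mice of 1 genotype, Ai14+/-;SM22α-Cre+, of both sexes and 3 to 4 months old, with no treatment. In these mice Cre recombinase is driven by the SM22α promoter, and a cell that has once expressed Cre keeps the red fluorescent protein tdTomato. Pericytes were the PDGFRβ+ tdTomato- cells and SMCs the PDGFRβ+ tdTomato+ cells, after CD31+ and CD45+ cells and dead cells had been gated out. Cells of several sorts were pooled for each sample, and which animals went into a library is not given in the sources used here. The tdTomato label records past activity of the promoter of Tagln, the gene of SM22α, so the difference of Tagln between the groups is not independent of how the cells were sorted.

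In smooth muscle, calcium and calmodulin activate myosin light chain kinase, which phosphorylates the regulatory light chain and lets the smooth muscle myosin heavy chain pull on filaments of smooth muscle actin. Calponin, transgelin and smoothelin bind these actin filaments, leiomodin takes part in their assembly, and synaptopodin 2 is an actin-binding protein of their anchoring sites. The genes are used as markers of differentiated SMCs, the cells around arteries and arterioles, and pericytes of capillaries are usually described as low in them.

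The values are FPKM, which divide the fragments of a gene by the length of its transcript and by the number of mapped reads, so levels of different genes are compared per length. Read numbers are unknown and no counting error can be given. Summed FPKM lay between 656405 and 782014 in 7 libraries and reached 1190435 in pericyte replicate 2, which stands apart in this, and between 12713 and 13194 genes reached 1 FPKM. Of the genes of the sort, Pdgfrb was at 3.21 to 17.6 FPKM in pericytes and 15.6 to 91.5 FPKM in SMCs. Pecam1, the gene of CD31, was at 25.0 to 59.7 FPKM in pericytes and 102 to 301 FPKM in SMCs. Ptprc, the gene of CD45, was at 80.6 to 230 FPKM in pericytes and 4.34 to 11.9 FPKM in SMCs, although CD45+ cells had been gated out of both. None of the 11 pericyte markers on the list used here was at 0 in every library of a group. All 11 had a higher mean log2 level in SMCs than in pericytes, beside 44.7% of all genes tested. Their median log2 difference was 1.34. In bulk RNA, fewer cells of a type and less RNA per cell cannot be told apart.

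Each of the 10 contractile genes had a higher mean in SMCs than in pericytes, and none of the 10 differences passed the test. On the log2(FPKM + 1) scale the differences ranged from 0.29 for Actg2 to 1.51 for Cnn1, with a median of 1.31 over the 10 genes and of -0.02 over all genes tested. The ratio of mean FPKM was 1.16 for Actg2, the lowest, and 3.29 for Myh11, the highest, and both rested on single libraries. Without SMC replicate 4 the ratio of Myh11 was 1.46, and Myl9 had the highest at 2.18. Without pericyte replicate 4 the ratio of Myh11 was 7.78 and that of Actg2 0.963, which is below 1. By limma with Benjamini-Hochberg adjustment over all 27414 genes, 0 of the 10 genes had a q value below 0.05, and the q values lay between 0.0625 and 0.705. At an unadjusted p below 0.05 limma picked out 4 of them, namely Acta2, Myl9, Tagln and Cnn1, where 16.2% of all genes were higher in SMCs at that threshold. Over all genes tested, 11.2% were higher in SMCs at q below 0.05 (3060 genes) and 10.6% were higher in pericytes (2917 genes), which makes 21.8% in either direction, whereas 44.7% had a higher mean in SMCs. With each library rescaled to a common sum the split over all genes was 3734 higher in SMCs and 2117 higher in pericytes. The 95% confidence interval of the difference included 0 for 6 of the 10 genes and reached a log2 difference of 2, the fold threshold of the study, for 9 of them. At a q value below 0.05 and a log2 difference above 2, 0 of the 10 were called, where 2.66% of all genes were called higher in SMCs and 3.24% higher in pericytes. An absent call is therefore no sign of equal levels.

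The count of calls changed with the genes fitted, with the scaling and with a replicate block. When only genes at 1 FPKM or more in at least 4 libraries were fitted, 9 of the contractile genes remained in the test and 4 of these passed (Acta2, Myl9, Tagln and Cnn1), where 22.8% of the 13349 genes fitted were called higher in SMCs. Rescaling each library to a common sum (TPM) gave 3 (Acta2, Myl9 and Tagln), beside 13.6% of all genes. Quantile scaling gave 2 (Acta2 and Myl9), beside 12.4%, and leaving out pericyte replicate 2 gave 1 (Myl9), beside 12%. A replicate block, which compares same-numbered libraries, gave 2 (Smtn, limma q = 0.0367, and Synpo2, limma q = 0.0252), beside 11.6%. Nothing says that same-numbered libraries share animals. The overlap of the groups also changed with the scaling. With libraries rescaled to a common sum, every SMC library exceeded every pericyte library for 4 of the 10 genes (Acta2, Myl9, Tagln and Cnn1) and not for Myl9 alone, beside 15.4% of all genes.

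**Figure D1:**
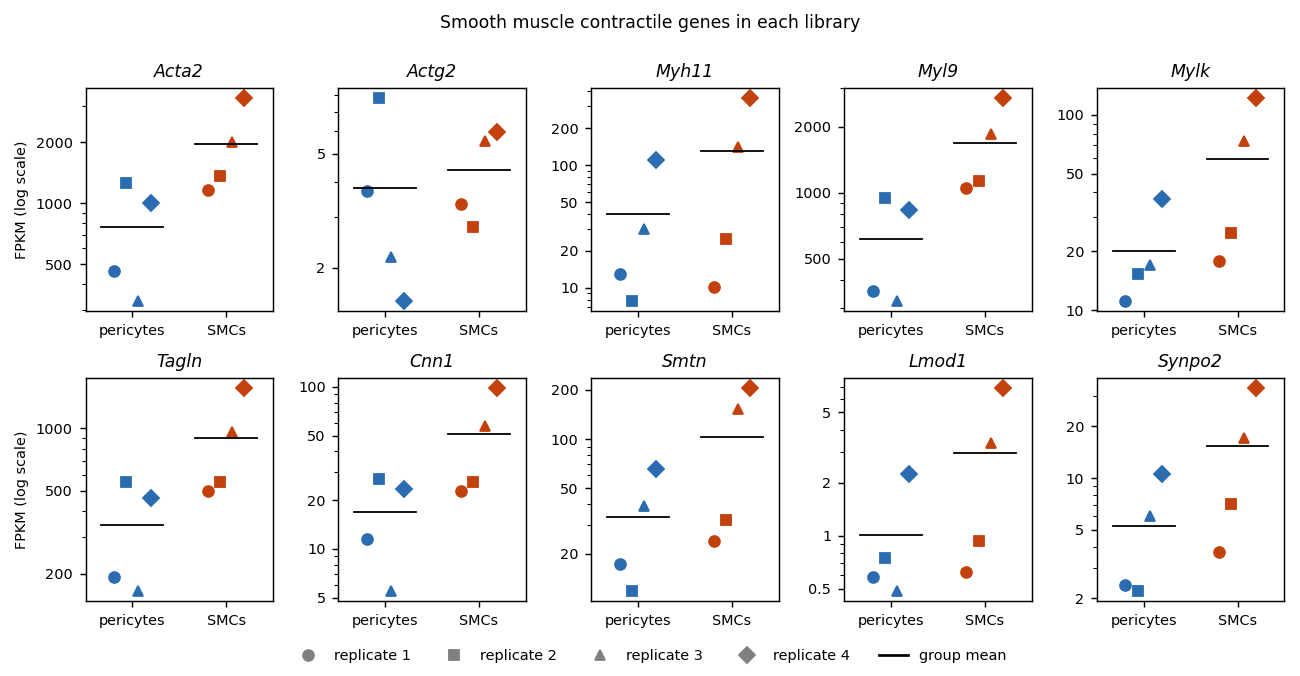
FPKM of each contractile gene (vertical axis, log scale) in the 4 pericyte libraries (blue) and the 4 SMC libraries (orange). Symbols stand for replicates 1 to 4 and black lines for group means, and Myl9 is the gene whose groups do not overlap in FPKM, with pericytes at 321 to 953 FPKM and SMCs at 1052 to 2706 FPKM.

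Among the actins, Acta2 encodes smooth muscle α-actin, the main actin of vascular smooth muscle, and its gene spans chr19:34315580-34329826 on the minus strand of NCBI Build 37. Its level in pericyte replicates 1 to 4 was 466, 1258, 330 and 1005 FPKM, and in SMC replicates 1 to 4 it was 1158, 1355, 1999 and 3291 FPKM. The groups overlapped by a single pair of libraries, since pericyte replicate 2 lay above SMC replicate 1, and with a common sum per library they did not overlap. The mean was 764 ± 440 FPKM in pericytes and 1951 ± 963 FPKM in SMCs (SD, n = 4). The log2 difference was 1.43 (SE 0.52, 95% interval 0.22 to 2.65) with a limma q of 0.0979 and a two-sided exact permutation p of 0.0571. Acta2 was the most abundant of the 10 genes in both groups. Of its 50-base words, the stretches of 50 bases in its transcripts, 0.404% also occur in Actg1, a cytoplasmic actin.

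Actg2, the γ-actin of visceral smooth muscle (chr6:83462899-83486259, minus strand), was present at a far lower level. Its FPKM was 3.71, 7.82, 2.18 and 1.53 in pericyte replicates 1 to 4 and 3.35, 2.77, 5.54 and 5.96 in SMC replicates 1 to 4. The highest of all 8 values was in pericyte replicate 2, and all 4 SMC libraries lay below it. With a common sum per library this order turned, and Actg2 was highest in SMC replicate 4 (8.53 TPM, against 6.57 TPM in pericyte replicate 2). The mean was 3.81 ± 2.83 FPKM in pericytes and 4.41 ± 1.58 FPKM in SMCs (SD, n = 4), with a log2 difference of 0.29 (SE 0.41, 95% interval -0.68 to 1.26) and a limma q of 0.705. Expressed per Acta2, Actg2 made up 0.152% to 0.797% in pericytes and 0.181% to 0.290% in SMCs.

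Of the myosin genes, Myl9 encodes the regulatory light chain of smooth muscle myosin, the substrate of the kinase (chr2:156601156-156607394, plus strand). Its level was 355, 953, 321 and 838 FPKM in pericyte replicates 1 to 4 and 1052, 1139, 1851 and 2706 FPKM in SMC replicates 1 to 4. In FPKM the 2 groups did not overlap, with all SMC libraries on the higher side, which held for 1 of the 10 contractile genes and for 12.5% of all genes tested. The mean was 617 ± 325 FPKM in pericytes and 1687 ± 768 FPKM in SMCs (SD, n = 4). The log2 difference was 1.51 (SE 0.47, 95% interval 0.40 to 2.62), the limma q 0.0625 and the two-sided exact permutation p 0.0286, which is the smallest that 4 against 4 libraries can give.

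Myh11, the smooth muscle myosin heavy chain, is a widely used SMC marker (chr16:14194620-14291501, minus strand). It was at 12.9, 7.79, 29.9 and 109 FPKM in pericyte replicates 1 to 4 and at 10.2, 25.2, 139 and 350 FPKM in SMC replicates 1 to 4. The groups were interleaved, with pericyte replicates 3 and 4 above SMC replicates 1 and 2, and pericyte replicate 1 above SMC replicate 1. The highest library was 14.0 times the lowest among pericytes and 34.4 times the lowest among SMCs. With this spread the log2 difference of 1.28 had an SE of 1.26 and a 95% interval from -1.68 to 4.24, and its limma q was 0.577. Of its 50-base words 0.392% are shared with the non-muscle myosin genes Myh9 and Myh10.

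Mylk encodes myosin light chain kinase (chr16:34745296-35002520, plus strand). Its FPKM was 11.1, 15.3, 16.9 and 37.1 in pericyte replicates 1 to 4 and 17.8, 24.9, 73.4 and 122 in SMC replicates 1 to 4. Pericyte replicate 4 lay above SMC replicates 1 and 2, and the other pericyte libraries lay below all SMC libraries. The log2 difference was 1.26 (SE 0.66, 95% interval -0.30 to 2.82) with a limma q of 0.258.

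Among the actin-binding proteins, Tagln encodes transgelin, also called SM22α (chr9:45737711-45744141, minus strand). Its level was 192, 551, 165 and 463 FPKM in pericyte replicates 1 to 4 and 500, 550, 967 and 1569 FPKM in SMC replicates 1 to 4. Pericyte replicate 2 was above SMC replicates 1 and 2, but with a common sum per library it was at 463 TPM, below the 677 and 839 TPM of these libraries, and the groups did not overlap. The mean was 343 ± 193 FPKM in pericytes and 896 ± 495 FPKM in SMCs (SD, n = 4), with a log2 difference of 1.42 (SE 0.53, 95% interval 0.17 to 2.67) and a limma q of 0.11. An exon of Pcsk7 lies on the opposite strand of Tagln and shares 1.04% of its 50-base words, and whether reads were counted by strand is not given in the sources used here.

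Cnn1 encodes calponin 1, which binds actin and lowers the activity of the myosin motor (chr9:21903725-21914074, plus strand). Its FPKM was 11.5, 27.0, 5.52 and 23.6 in pericyte replicates 1 to 4 and 22.9, 25.9, 56.9 and 98.6 in SMC replicates 1 to 4. Pericyte replicate 2 was above SMC replicates 1 and 2, and pericyte replicate 4 was above SMC replicate 1, whereas with a common sum the groups did not overlap. Its log2 difference of 1.51 (SE 0.63, 95% interval 0.04 to 2.98) was the highest of the 10, with a limma q of 0.146.

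Smtn encodes smoothelin, a protein of contractile smooth muscle that associates with actin filaments (chr11:3417526-3440615, minus strand). It was at 17.4, 11.9, 39.0 and 65.9 FPKM in pericyte replicates 1 to 4 and at 23.8, 31.9, 153 and 205 FPKM in SMC replicates 1 to 4. Pericyte replicates 3 and 4 lay above SMC replicates 1 and 2. The log2 difference was 1.34 (SE 0.86, 95% interval -0.68 to 3.35) with a limma q of 0.363, and 2 annotated genes, Gm11946 and Gm11947, overlap its exons on the opposite strand.

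Lmod1, leiomodin 1, which nucleates actin filaments in smooth muscle (chr1:137221384-137264642, plus strand), was the least abundant of the 10. It was at 0.582, 0.750, 0.485 and 2.22 FPKM in pericyte replicates 1 to 4 and at 0.621, 0.928, 3.36 and 6.90 FPKM in SMC replicates 1 to 4, and so was the sole contractile gene that did not reach 1 FPKM in every library. Pericyte replicate 4 was above SMC replicates 1 and 2, and pericyte replicate 2 was above SMC replicate 1. The log2 difference was 0.76 (SE 0.54, 95% interval -0.51 to 2.02) with a limma q of 0.424, on a scale that understates the change of genes this low. The ratio of its mean FPKM, 2.92, was close to those of Mylk (2.95) and Synpo2 (2.90).

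Synpo2, synaptopodin 2 or myopodin (chr3:122779437-122939067, minus strand), was at 2.40, 2.21, 6.04 and 10.5 FPKM in pericyte replicates 1 to 4. In SMC replicates 1 to 4 it was at 3.72, 7.08, 17.2 and 33.5 FPKM. Pericyte replicate 4 was again above SMC replicates 1 and 2, and pericyte replicate 3 was above SMC replicate 1. The log2 difference was 1.19 (SE 0.70, 95% interval -0.47 to 2.84) with a limma q of 0.322.

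**Figure D2:**
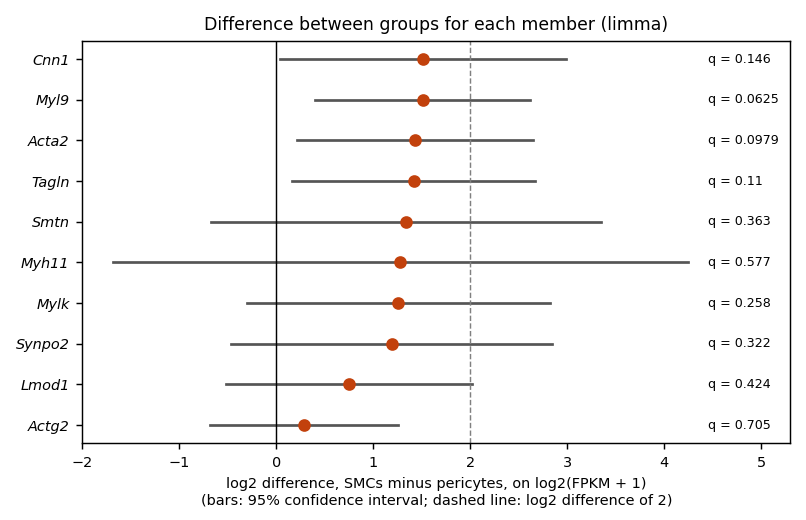
Difference between SMCs and pericytes for each contractile gene (horizontal axis, log2 units on log2(FPKM + 1)) with its 95% confidence interval from limma and its q value, over 4 libraries per group. All 10 points lie to the right of 0, 6 intervals include 0, and 9 reach the dashed line at a log2 difference of 2.

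The order of the 10 genes by mean log2 level per length was the same in both groups, from Acta2 through Myl9, Tagln, Smtn, Myh11, Mylk, Cnn1, Synpo2 and Actg2 to Lmod1. Acta2 was above Myl9, and Myl9 above Tagln, in 4 of 4 libraries of each group, although the ranges of these neighbours overlapped between libraries. The step from Tagln to Smtn was the sole one between neighbours whose ranges did not overlap, in pericytes and in SMCs alike. Below it the ranges of all neighbours overlapped, with Mylk above Cnn1 in 2 of 4 libraries of each group. Acta2, Myl9 and Tagln together made up 89.1% to 97.4% of the summed FPKM of the 10 genes. That sum was 916 to 2835 FPKM in pericytes, or 0.127% to 0.327% of all FPKM of the library. In SMCs it was 2792 to 8388 FPKM, or 0.378% to 1.20%.

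The level of the contractile genes also varied among the libraries of 1 group. Of the SMC libraries, replicate 4 was the highest for 10 of 10 genes and replicate 1 the lowest for 9. SMC replicate 4 was also the highest of all 8 libraries for 9 of the 10 genes, the exception being Actg2, and with a common sum per library for 10 of 10. Pericyte replicate 4 exceeded SMC replicate 1 for 6 genes and SMC replicate 2 for 5. Within groups, the SD of log2(FPKM + 1) was between 0.637 and 1.96 for the 10 genes, with a median of 0.903, against a median of 0.421 over the 13612 genes whose mean reached 1 FPKM. All 10 were above that median, and Myh11 at 1.96 was more variable than 99.4% of those genes. When single libraries were left out, the median difference over the 10 genes ranged from 0.81 without SMC replicate 4 to 1.67 without SMC replicate 1, and it was 1.07 without pericyte replicate 2. The difference moved by more than 1.5 times for 6 of the 10 genes (Actg2, Myh11, Mylk, Smtn, Lmod1 and Synpo2). It was smallest without SMC replicate 4 for 7 genes, and for Myh11 it fell there from 1.28 to 0.44, for Lmod1 from 0.76 to 0.32, for Mylk from 1.26 to 0.79, for Smtn from 1.34 to 0.83 and for Synpo2 from 1.19 to 0.70. The difference of Actg2 was 0.29, but 0.04 without pericyte replicate 4 and 0.64 without pericyte replicate 2. All 10 genes kept a higher mean log2 level in SMCs in each of these fits.

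In FPKM the pericyte libraries fell into 2 patterns over the genes. Acta2, Actg2, Myl9, Tagln and Cnn1 were highest in pericyte replicate 2, whereas Myh11, Mylk, Smtn, Lmod1 and Synpo2 were highest in pericyte replicate 4. The first 5 genes are those with the shortest transcripts, from 1128 bases for Myl9 to 2368 bases for Cnn1. The other 5 have transcripts from 3386 bases for Smtn to 7824 bases for Mylk. A trend on transcript length ran through the libraries as a whole. Over 2835 genes with transcripts of up to 1500 bases, the median deviation from the group mean was 0.62 log2 units in pericyte replicate 2 and -0.30 in pericyte replicate 3. Over 1334 genes above 6000 bases it was -0.35 and 0.18 in the same libraries. Among SMCs the trend was smaller, with 0.21 for short and -0.20 for long transcripts in replicate 1, and -0.12 and 0.18 in replicate 4. With this trend removed from each library, 0 of the 10 genes were called, beside 12.5% of all genes, and the median difference was 1.32. With it removed, 8 genes were highest in pericyte replicate 4 and 2 (Actg2 and Cnn1) in replicate 2. Pericyte replicate 2 was still the lowest pericyte library for Myh11 and Smtn, and for Acta2, Myl9 and Tagln it still lay above pericyte replicates 1 and 3. With a common sum per library in place of this, 9 genes were highest in pericyte replicate 4 and Actg2 in replicate 2. This removal was chosen after seeing the data.

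**Figure D3:**
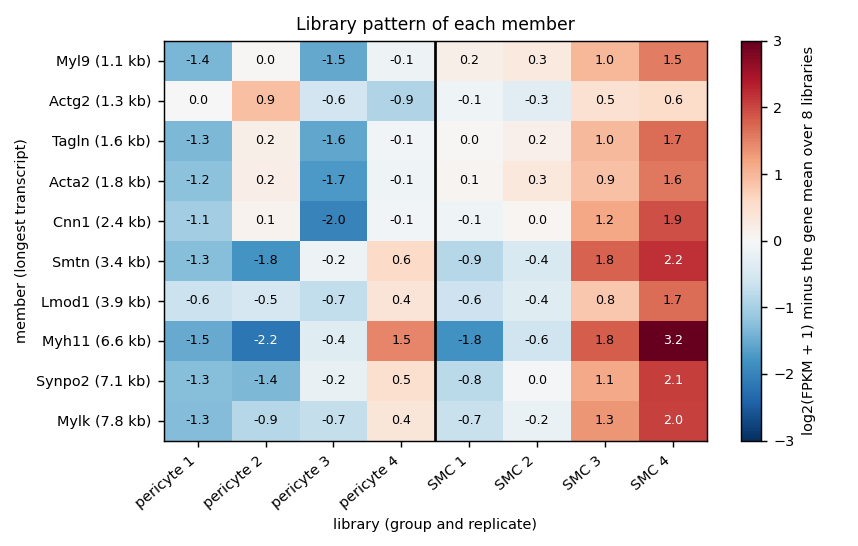
Log2(FPKM + 1) of each contractile gene in each library minus the mean of that gene over the 8 libraries (colour and printed values), with genes ordered by the length of their longest transcript from 1128 bases (Myl9) to 7824 bases (Mylk). SMC replicates 3 and 4 are above the gene mean for all 10 genes, and pericyte replicate 2 is above it for short and below it for long transcripts.

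Ratios between the genes within a library do not change when all values of a library are multiplied by 1 factor. Tagln made up 40.6% to 50.1% of the Acta2 FPKM in all 8 libraries, and Myl9 made up 75.7% to 97.3%. Over the 8 libraries, gene-centred log2 values of Acta2 and Tagln differed by a root mean square of 0.10, those of Myl9 and Tagln by 0.10 and those of Acta2 and Myl9 by 0.12. Myh11 moved apart from them, since its FPKM was 2.77%, 0.619%, 9.07% and 10.8% of Acta2 in pericyte replicates 1 to 4 and 0.879%, 1.86%, 6.97% and 10.6% in SMC replicates 1 to 4. The ratio of heavy chain to actin was thus as high in pericyte replicates 3 and 4 as in SMC replicates 3 and 4, and low in SMC replicate 1 as in pericyte replicate 2. Mylk, the kinase, was at 1.60% to 5.27% of Myl9, its substrate. Synpo2 was closest to Mylk (0.27) and next to Smtn (0.32), and the most unlike pair was Myh11 and Actg2 (1.90). The pairs of this paragraph were chosen after their values were seen and are given with no test, and transcript length differs within some of them.

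**Figure D4:**
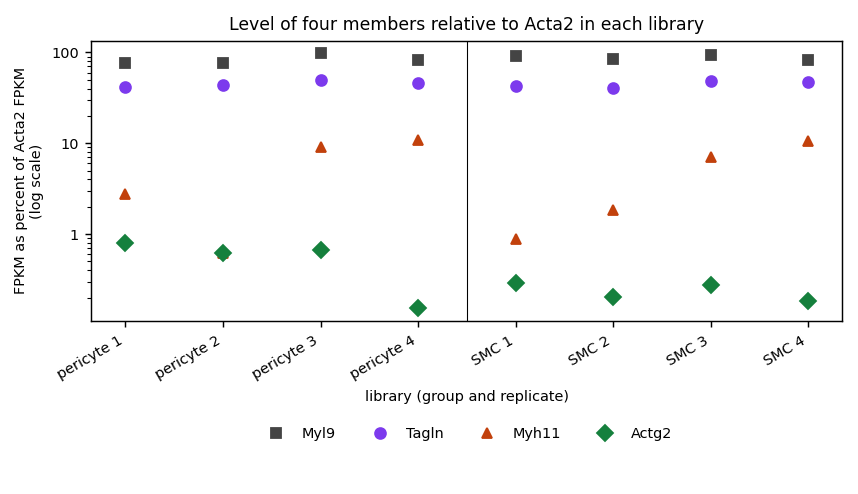
FPKM of Myl9, Tagln, Myh11 and Actg2 as a percent of Acta2 FPKM in the same library (vertical axis, log scale), for the 4 pericyte and the 4 SMC libraries. Tagln stays between 40.6% and 50.1% and Myl9 between 75.7% and 97.3%, whereas Myh11 ranges from 0.619% to 10.8%.

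The balance among the genes was then compared between groups as the log2 value of a gene minus the mean over the 10 genes in the same library. Group differences of this balance were between -0.91 log2 units for Actg2 and 0.31 for Cnn1. For Lmod1 the balance was -4.06 ± 0.18 in pericytes and -4.50 ± 0.08 in SMCs (SD, n = 4). The difference of -0.44 had a two-sided exact permutation p of 0.0286, or 0.286 when adjusted over the 10 genes compared. Taken against the median of the 10 genes, the difference was -0.58 (exact permutation p = 0.171, unadjusted). Against the mean, with a pseudocount of 0.1 in place of 1, it was -0.15 (two-sided exact permutation p = 0.571). The value for this lowest gene thus depended on the pseudocount. The other 9 genes had unadjusted exact permutation p values from 0.2 to 0.971.

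For 7 of the 10 genes the 250 bases before the annotated start were read from RefSeq (GRCm38.p6), and Tagln, Myh11 and Actg2 were not matched in that table. The motif was searched over the whole 250 bases of each. Serum response factor, a transcription factor of smooth muscle genes, is known to bind the CArG box, a motif of 10 bases that reads CC, then 6 bases that are each A or T, then GG, and that reads by the same rule on both strands. An exact CArG box was found in Myl9, and sequences with 1 letter off in Acta2, Lmod1 and Myl9. Over 32851 windows of the same length, 1.47% held an exact box and 18.6% an exact box or one with 1 letter off. Mylk, Cnn1, Smtn and Synpo2 held neither in these windows. The stretches with matches are shown because they carry the motif beside the most abundant (Acta2, Myl9) and the least abundant (Lmod1) of the genes. Capitals mark the matches. In Acta2 (chr19:34255374-34255623, minus strand) they begin 84 and 34 bases before the start. In Myl9 (chr2:156775214-156775419, plus strand, without the last bases, which an older transcript covers) the exact box begins 161 bases before the start and the one with 1 letter off begins 99 bases before it. In Lmod1 (chr1:135324563-135324812, plus strand) they begin 189 and 164 bases before it. A match is a description of letters and no evidence of binding.
Acta2: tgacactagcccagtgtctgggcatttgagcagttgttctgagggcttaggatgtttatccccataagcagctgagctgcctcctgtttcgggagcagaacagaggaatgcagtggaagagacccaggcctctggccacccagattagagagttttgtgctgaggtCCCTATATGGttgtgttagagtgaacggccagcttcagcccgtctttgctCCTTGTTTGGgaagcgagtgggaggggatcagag
Myl9: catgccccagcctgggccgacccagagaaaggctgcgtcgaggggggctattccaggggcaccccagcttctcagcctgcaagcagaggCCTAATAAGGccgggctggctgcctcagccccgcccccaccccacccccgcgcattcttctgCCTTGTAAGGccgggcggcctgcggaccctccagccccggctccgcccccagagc
Lmod1: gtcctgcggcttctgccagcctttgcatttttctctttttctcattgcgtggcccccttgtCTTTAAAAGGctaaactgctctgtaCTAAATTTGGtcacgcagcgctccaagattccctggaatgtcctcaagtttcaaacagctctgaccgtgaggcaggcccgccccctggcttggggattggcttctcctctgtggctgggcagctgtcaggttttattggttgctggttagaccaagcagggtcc

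Other genes of the contractile apparatus were read from lists, each beside the 11.2% of all genes called higher in SMCs and the 10.6% called higher in pericytes. Of 11 thin filament partners, 3 passed higher in SMCs, 1 passed higher in pericytes and 7 did not pass, with a median log2 difference of 0.21. Tropomyosin 1 (Tpm1), which lies along the actin filament, was at 144 ± 63.2 FPKM in pericytes and 459 ± 199 FPKM in SMCs (SD, n = 4, q = 0.0203). Caldesmon (Cald1), which inhibits the actomyosin interaction, was at 36.6 ± 20.9 and 153 ± 95.9 FPKM (q = 0.0333). The calponin relatives of Cnn1 went opposite ways, with Cnn3 at 273 ± 91.3 FPKM in pericytes and 749 ± 175 FPKM in SMCs (q = 0.00761), and Cnn2 at 318 ± 24.2 FPKM in pericytes and 79.1 ± 20.3 FPKM in SMCs (q = 0.000273).

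Of 15 genes of myosin regulation, 1 passed in each direction and 13 did not pass, with a median of 0.28. Arhgef12, a guanine nucleotide exchange factor for RhoA, was higher in SMCs (1.21 ± 0.245 against 2.31 ± 0.325 FPKM, q = 0.00732). Rock1, a kinase downstream of RhoA, was higher in pericytes (14.4 ± 2.99 against 8.86 ± 1.27 FPKM, q = 0.0273). The essential light chain Myl6 and the calmodulin gene Calm2, the most abundant genes of the list, had log2 differences of 0.32 (q = 0.613) and 0.41 (q = 0.0893).

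Of 18 genes of dense bodies and cytoskeletal anchors, 6 passed higher in SMCs, 0 passed higher in pericytes and 12 did not pass, and the median of 1.06 was, of these 5 related lists, the nearest to that of the contractile genes. Vim, the intermediate filament protein vimentin, was at 320 ± 108 FPKM in pericytes and 881 ± 116 FPKM in SMCs (q = 0.00389), and it is also abundant in fibroblasts and endothelial cells. Ilk, integrin-linked kinase, was at 199 ± 6.43 and 282 ± 19.4 FPKM (q = 0.00201), and Nexn, the actin-binding nexilin, at 1.29 ± 0.553 and 4.88 ± 0.871 FPKM (q = 0.00292). Pdlim7, Sorbs3 and Synpo were the others that passed. Des, the muscle intermediate filament protein desmin, did not pass (42.6 ± 24.6 against 99.2 ± 59.5 FPKM, q = 0.167), and it was named after its value was seen.

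Of 7 non-muscle counterparts, 1 passed, the non-muscle heavy chain Myh10 (2.06 ± 0.661 against 5.58 ± 0.42 FPKM, higher in SMCs, q = 0.00234), and the median was -0.21, which turned to 0.25 with quantile scaling and 0.03 with a common sum per library. Of 21 striated muscle counterparts, 1 passed higher in SMCs, the smoothelin-like gene Smtnl2 (1.77 ± 1.02 against 6.03 ± 3.01 FPKM, q = 0.0477). Another, the fast skeletal light chain Mylpf, passed higher in pericytes (11.9 ± 3.68 against 5.29 ± 0.756 FPKM, q = 0.0108). The summed FPKM of the striated list was 29.3 to 54.3 in pericytes and 33.9 to 47.5 in SMCs, far below the sum of the contractile genes. None of the genes named here as passing changed direction under any of the settings tried, but not all remained past the threshold. Of 21 settings, the main one included, Rock1 passed in 8, Pdlim7 and Smtnl2 in 13 and Cald1 in 15, and the others named here as passing did so in 17 to 21.

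**Figure D5:**
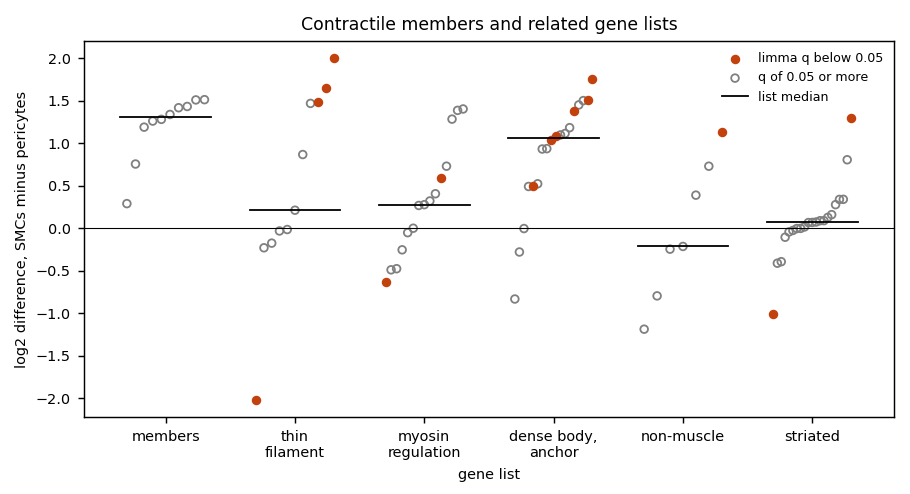
Log2 difference between SMCs and pericytes (vertical axis, on log2(FPKM + 1)) of the 10 contractile genes and of the genes on 5 related lists (horizontal axis). Filled points passed limma at a q value below 0.05, open points did not, and black lines are list medians, from 1.31 for the contractile genes and 1.06 for dense bodies and anchors to -0.21 for non-muscle counterparts.

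Genes whose library pattern was most like that of the contractile genes were sought among 7568 other genes with a mean log2(FPKM + 1) of at least 3. The measure was the root mean square difference, over 8 libraries, from the mean centred profile of the 10 genes, and its median over these genes was 1.11. The 10 closest were Rbpms2 (0.13), Speg (0.15), Pcp4l1 (0.19), Hspb6 (0.19), Higd1b (0.20), Pln (0.23), Tmem51 (0.23), Apbb1 (0.25), Slmap (0.26) and Bcr (0.27). Rbpms2, an RNA-binding protein, was at 9.24, 15.1, 12.0 and 30.7 FPKM in pericyte replicates 1 to 4 and at 14.7, 19.4, 56.0 and 93.5 FPKM in SMC replicates 1 to 4. Hspb6, a small heat shock protein, was at 9.10 to 26.2 FPKM in pericytes and 21.3 to 80.0 FPKM in SMCs, and Pln, phospholamban, the regulator of the calcium pump, at 4.38 to 15.3 and 10.5 to 52.2 FPKM. Groups overlapped for all 10 of these genes, and none had a limma q below 0.05 (0.0772 to 0.282). Of the contractile genes themselves, Mylk (0.21) and Lmod1 (0.25) were the closest to their mean profile and Myh11 (1.07) the farthest. Among the 7568 other genes, 5 were closer to the profile than Mylk and 7 than Lmod1. For Acta2, Myl9, Tagln, Cnn1 and Synpo2 this count was between 69 (Tagln) and 122 (Acta2). It was 386 for Smtn, 1931 for Actg2 and 3357 for Myh11, so the profile is a mean that not all 10 genes followed closely.

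Markers of other cell types were read beside the 11.2% of all genes called higher in SMCs and the 10.6% called higher in pericytes. The summed FPKM of 5 leukocyte genes was 3925 to 6845 in pericytes and 233 to 312 in SMCs, and 5 of 5 passed higher in pericytes, as did 5 of 5 T cell and 5 of 5 B cell genes. The sum of 10 endothelial genes was 125 to 223 FPKM in pericytes and 589, 788, 1295 and 1593 FPKM in SMC replicates 1 to 4, with 8 of 10 higher in SMCs. The sum of 9 fibroblast genes was 1103 to 2034 FPKM in pericytes and 5485, 4893, 5794 and 6307 FPKM in SMC replicates 1 to 4. Of these genes 8 were higher in SMCs, and Dcn, listed at 0 in every SMC library, was higher in pericytes. Dcn alone was at 1165, 1115, 509 and 571 FPKM in pericyte replicates 1 to 4, a large part of the pericyte sums. The sum of 11 pericyte genes was 75.4 to 165 FPKM in pericytes and 220, 206, 427 and 565 FPKM in SMC replicates 1 to 4, and 3 of them (Rgs5, Ndufa4l2 and Vtn) passed higher in SMCs. The sum of 5 macrophage genes was 144 to 265 FPKM in pericytes and 267, 236, 278 and 374 FPKM in SMC replicates 1 to 4, with 2 higher in SMCs. Among SMCs the endothelial, fibroblast, pericyte and macrophage sums were highest in replicate 4, as were the contractile genes. B cell, skeletal fibre, satellite cell, Schwann cell and erythroid sums were highest in other SMC replicates. Leukocyte sums were 309, 305, 233 and 312 FPKM in SMC replicates 1 to 4. T cell sums were 25.7, 30.7, 18.6 and 32.2 FPKM in these libraries, so both were also highest in replicate 4. By gene, 9 of 10 endothelial genes, 11 of 11 pericyte genes and 5 of 5 macrophage genes were highest there, but of the fibroblast genes only Pdgfra and Ly6a were. Lum, Cd34, Dpt and Pi16 were highest in SMC replicate 1, the lowest SMC library for 9 contractile genes, and Col1a1 and Col1a2 in SMC replicate 3. The sum of 8 skeletal fibre genes was 35.9 to 48.9 FPKM in pericytes and 29.5 to 49.9 FPKM in SMCs. The sum of 5 satellite cell genes was 19.2 to 160 FPKM in pericytes and 498, 487, 197 and 182 FPKM in SMC replicates 1 to 4, an order unlike that of the contractile genes, and 0 of 5 passed. The sum of 5 Schwann cell genes was 103 to 657 FPKM in pericytes and 108 to 344 FPKM in SMCs, and that of 3 erythroid genes 66.5 to 1911 and 68.5 to 422 FPKM, with 0 passing in either list. Of 10 genes used by every cell, 2 were listed at 0 in every library. The other 8 all had a lower mean in SMCs, with a median log2 difference of -0.49, and 2 of them (Eef1a1 and Rplp0) passed higher in pericytes. The part of these other cells in the differences of the contractile genes was not tested.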

How the data were processed

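RNA of 4 pericyte and 4 SMC samples was amplified with a SMART-Seq v4 kit and made into Nextera XT libraries, all labelled with the same batch. The paper proposes that differences between animals and batch effects may underlie variation among replicates, since each sample combined several sorts. The authors aligned the reads to NCBI Build 37 with Bowtie2 and TopHat and an Ensembl annotation and deposited FPKM per gene and library. The program that computed FPKM, and whether strand was used, are not given in the sources used here. The authors name 4 biological replicates. Pooled sorts may share animals between samples, so p-values measure the spread between these samples.

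The FPKM were taken as log2(FPKM + 1) and compared with limma 3.58.1 (lmFit and eBayes, R 4.3.3) over 27414 genes above 0 in at least 1 library, with Benjamini-Hochberg adjustment (q value). For single values a two-sided exact permutation test over the 8 libraries was run (scipy 1.17.1, Python 3.11.15). Figures were drawn with matplotlib 3.10.9. On simulated data of 27414 genes limma recovered 181 of 200 that had been shifted by 3 on the log2 scale, and it called 10 others. The shifted genes were drawn from those with a mean log2(FPKM + 1) of at least 3, a level that Actg2 and Lmod1 did not reach. Differences of the contractile genes were at most 1.51, so this recovery does not apply to them. Low FPKM values gave relative depths whose largest was 1.23 times the smallest.

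Gene positions, transcript lengths and 50-base words came from GENCODE version M1, which holds 37195 of the 37979 identifiers, 36519 with the same symbol. Lengths were found for 99.3% of the genes tested. The contractile genes and all lists were chosen with earlier results of these data known. All 10 contractile genes are named. Of other lists, 2 to 4 genes with the smallest q or the highest mean FPKM are named, and most further names are of genes that passed. Exceptions are Des, named after its value was seen, Pdgfrb, a gene of the sort, and Actg1 and Myh9, named for shared 50-base words. The 10 genes of most similar pattern are named. Alternative settings comprised TPM (each library rescaled to a common sum), a pseudocount of 0.1, a 1 FPKM filter (4 libraries), quantile and median-ratio scaling, a replicate block, an intensity trend, limma treat at a log2 fold change of 1, the median in place of the mean for the balance, and each library left out in turn. Removal of a length trend, and combinations of settings, were added after seeing the data. Columns of other samples numbered 0.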

Additional observations from a re-analysis of the deposited data

How the results depend on the processing

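All 10 contractile genes (9 of 9 with the filter at 1 FPKM) had a higher mean log2 level in SMCs in every setting run, and the median difference ranged from 0.81 to 1.67 when single libraries were left out. The number called at a q value below 0.05, which was 0 in the main analysis, was 4 with the filter at 1 FPKM, 3 with TPM and 2 with quantile scaling, and it ranged from 0 to 1 when single libraries were left out. Actg2 was called in none of the settings, and Lmod1 in none of those that fitted it, since the filter at 1 FPKM drops it. Which of scaling and filter gives the better estimate was not tested. Over all genes, limma treat left 548 higher in SMCs and 780 higher in pericytes, and leaving out single libraries gave 2407 to 3234 and 2316 to 3302. With quantile scaling the counts were 3410 and 2746.

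The groups share replicate numbers, but nothing says that same-numbered libraries share animals. Their deviations from the group means correlated across 13612 genes by 0.0794 to 0.474 over 4 pairs (mean 0.327), and not every library correlated best with its own number. The replicate block called 2 contractile genes (Smtn, q = 0.0367, with 0.00414 to 1 over all settings, and Synpo2, q = 0.0252, with 0.00425 to 1), where 11.6% of all genes were called higher in SMCs. With the replicate block and TPM together 6 were called, beside 13.7% of all genes, with the replicate block and the filter 8, beside 25.8%, and with the replicate block and the length trend removed 3, beside 13.2%. The calls of Rock1 and Mylpf higher in pericytes ended under the replicate block alone. Mylpf passed again when TPM or the filter was added to the block, but not with the length trend removed. Rock1 passed in none of these combinations. These combinations were added after seeing the data.

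The scale log2(FPKM + 1) understates the change of Lmod1, Actg2 and Synpo2, the 3 lowest genes, and without read numbers the counting error of their values is unknown. With 4 libraries per group and within-group SDs of 0.637 to 1.96, differences of up to 1.51 log2 units did not pass the test.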
